A study of Cuscuta campestris with 9 samples.

Results

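Precursors of the initiator methionine (iMet), elongator methionine (Met) and tyrosine (Tyr) tRNAs were followed in dodder, *Cuscuta campestris*, a parasitic plant. The genes were taken as all pre-tRNA entries whose name ends in iMet, Met or Tyr followed by the anticodon, and the counts of all listed intervals of a gene were summed. This gave 46 of the 496 tRNA genes listed and 46 of all 716 loci: 15 iMet genes and 17 Met genes, all with the anticodon CAT, and 14 Tyr genes with the anticodon GTA. Together they held 226 intervals and 1708 counts, of which 463 were iMet, 874 were Met and 371 were Tyr. RNA came from haustoria, the invasive organs of the parasite, of the wild-type strain "Dotti". They had been induced without a host in 4 days, on detached shoot tips under far-red light and pressure. Each of 3 RNA samples was split into an untreated portion, a portion treated with the decapping enzyme Dcp and a portion treated with the pyrophosphohydrolase RppH, so each of the 3 treatments had 3 libraries. The same tissue, strain and induction applied to all 9 libraries. Separate plants or cultures behind the RNA samples are not mentioned in the labels, so p-values measure the spread between these libraries, which may be technical.

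A tRNA gene is transcribed by RNA polymerase III, and the fresh transcript starts with a 5′ triphosphate. RNase P then removes the 5′ leader and leaves a monophosphate, and RNase Z removes the 3′ trailer before CCA is added. The initiator tRNA decodes the start codon, the elongator methionine tRNA decodes internal AUG codons, and in plants the elongator Met and Tyr genes usually carry an intron, which the initiator gene lacks. Library construction here needed a 5′ monophosphate. RppH turns a triphosphate into a monophosphate and also opens caps, whereas Dcp opens caps, so an unprocessed 5′ end is counted mainly after RppH.

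Depth was low for these genes. The library totals implied by the deposited TPM (here a count scaled to the library total, with no length scaling) ran from 24974484 to 46034864, and a single count was worth 0.0217 to 0.04 TPM. The 46 genes held 24, 26 and 18 counts in the untreated libraries of RNA samples 1, 2 and 3. They held 69, 109 and 45 counts after Dcp and 408, 329 and 680 after RppH. As a check of the enzymes, the spliceosomal snRNA loci, which carry caps, were 613 times as high after Dcp as untreated and 696 times as high after RppH. All levels are relative to the library total. Molecular identifiers are not described, and the intervals and floors given here account for counting error alone. The rule by which reads matching more than 1 copy were placed was not stated, so the values of near-identical copies are uncertain.

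The counts were concentrated in few copies. The most counted gene held 33.5% of the iMet counts, 29.7% of the Met counts and 36.4% of the Tyr counts, and the 3 most counted genes of each group held 68.3%, 67.6% and 72.0%. The leading iMet copies were tRNA13-iMetCAT and tRNA2-iMetCAT, both on scaffold 16, with 155 and 108 counts. The leading Met copies were tRNA7-MetCAT on scaffold 159 (260 counts), tRNA4-MetCAT on scaffold 161a (172 counts) and tRNA5-MetCAT on scaffold 92b (159 counts). The leading Tyr copies were tRNA1-TyrGTA on scaffold 98 (135 counts) and tRNA1-TyrGTA on scaffold 254 (108 counts). Of the 46 genes, 28 reached the minimum of 10 counts over all libraries used for testing: 8 iMet, 12 Met and 8 Tyr. The other 18 held 4 untreated, 17 Dcp and 57 RppH counts together. Just inside the minimum was tRNA3-TyrGTA on scaffold 64, with 10 counts, and just outside it were 3 Met genes with 8 counts each. Of these 28, 21 had fewer than 10 counts outside the RppH libraries and reached the minimum only through them, so for these genes the counts of calls and the p-values for a higher level after RppH are given as a description. The 7 genes with 10 or more counts outside RppH were tRNA13-iMetCAT and tRNA2-iMetCAT on scaffold 16, tRNA7-MetCAT on scaffold 159, tRNA4-MetCAT on scaffolds 161a and 63, tRNA5-MetCAT on scaffold 92b and tRNA1-TyrGTA on scaffold 98. Before any enzyme, 34 of the 46 genes had 0 counts: 13 of 15 iMet, 10 of 17 Met and 11 of 14 Tyr. After RppH, 3 of the 46 had 0 counts.

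The copies lay on 35 scaffolds of the assembly Ccam0.32. Within 10 kb of another copy of the same group lay 6 of the 15 iMet genes, 0 of the 17 Met genes and 0 of the 14 Tyr genes. The iMet neighbours were tRNA13 and tRNA11 on scaffold 16, tRNA3 and tRNA4 on scaffold 40, and tRNA2 and tRNA3 on scaffold 53. With a distance of 50 kb, 6 iMet, 2 Met and 2 Tyr genes had such a neighbour. Other listed tRNA genes lay close to some copies. The tRNA13-iMetCAT intervals lay 45 nt from those of tRNA14-AlaTGC on the same strand, an alanine tRNA gene with 7629 counts. On scaffold 303, tRNA1-MetCAT and tRNA2-TyrGTA stood 68 nt apart on the same strand, with 28 and 21 counts. Within 1 kb of another listed tRNA gene were 4 iMet, 3 Met and 2 Tyr genes.

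After RppH all 3 groups were higher than in the untreated RNA, in every RNA sample. The iMet total was 0.339, 0.0434 and 0.189 TPM in untreated RNA samples 1, 2 and 3. It was 0.857, 1.47 and 0.310 TPM after Dcp and 3.53, 3.24 and 5.19 TPM after RppH. The RppH libraries lay above all others, while the Dcp and untreated values overlapped, since the Dcp library of RNA sample 3 was below the untreated library of RNA sample 1. The Met total was 0.0968, 0.50 and 0.416 TPM untreated, 1.48, 0.906 and 1.10 TPM after Dcp, and 7.98, 6.01 and 10.8 TPM after RppH. Here the 3 treatments did not overlap. The Tyr total was 0.145, 0.0217 and 0.0757 TPM untreated, 0.351, 0.294 and 0.138 TPM after Dcp, and 3.35, 3.92 and 4.41 TPM after RppH. The RppH values again stood apart, and the Dcp library of RNA sample 3 fell within the untreated range.

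The means over 3 libraries of the iMet total were 0.190 ± 0.148 TPM (SD) untreated, 0.879 ± 0.580 after Dcp and 3.99 ± 1.05 after RppH. For Met they were 0.338 ± 0.213, 1.16 ± 0.292 and 8.26 ± 2.40 TPM, and for Tyr 0.0809 ± 0.0619, 0.261 ± 0.110 and 3.89 ± 0.528 TPM. Against untreated RNA, the mean after RppH was 20.9 times as high for iMet, 24.5 times for Met and 48.1 times for Tyr, beside 11.9 times for all other tRNA genes. That comparison depended on the alanine genes, which held 1364 of the 2021 untreated counts of the other genes: without them the ratio was 27.3, above iMet and Met. Isotypes were ranked by this ratio where they had more than 3 untreated counts and at least 100 counts in all. Among these 18 isotypes Tyr ranked 4, Met 9 and iMet 12, and His was the highest (155 times, from 4 untreated counts). Leu and Pro, with 3 untreated counts each, were not ranked. Their means went from 0.0242 TPM untreated to 11.7 and 2.01 TPM after RppH. The mean after Dcp was 4.61, 3.45 and 3.23 times the untreated mean for iMet, Met and Tyr, beside 1.82 times for the other tRNA genes, or 2.67 times without the alanine genes. By this ratio iMet ranked 4, Met 7 and Tyr 9 of the same 18 isotypes, with His again the highest at 10.5 times. RppH against Dcp gave ratios of 4.54 for iMet, 7.10 for Met and 14.9 for Tyr, beside 6.54 for the other tRNA genes, or 10.2 without alanine. As totals over chosen genes, these sums carry no p. As a share of all pre-tRNA counts, the rise after RppH was smaller: on the log2 scale 0.90 for iMet, 0.77 for Met and 2.14 for Tyr, against 4.39, 4.61 and 5.59 on the library total. The most counted gene held most of the untreated counts of iMet and Tyr, but not of Met: without it, 4 of 21 iMet, 2 of 9 Tyr and 31 of 38 Met counts remained in the 3 untreated libraries. The log2 rise after RppH was then 6.46 for iMet and 7.34 for Tyr, from those 4 and 2 untreated counts.

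**Figure D1:**
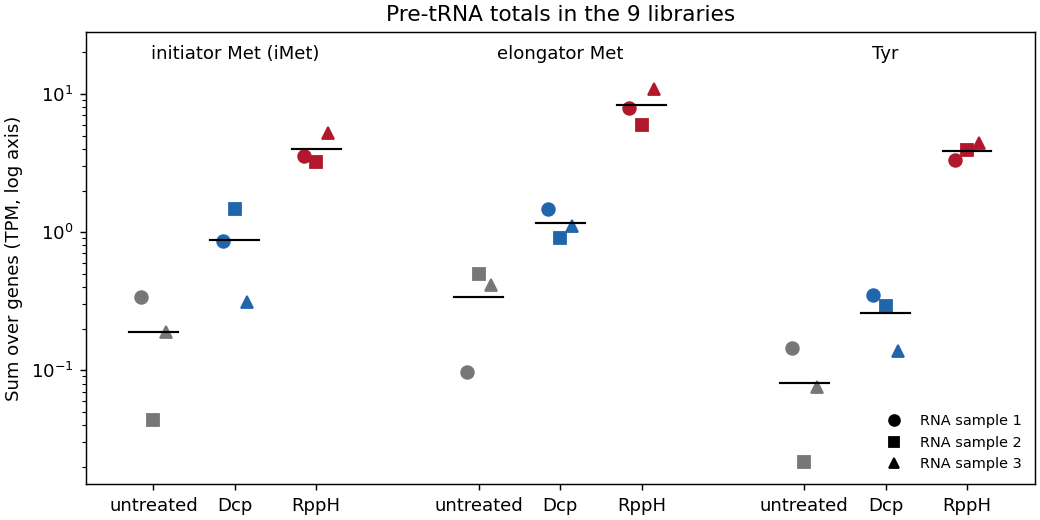
Summed level of the iMet, Met and Tyr precursors in each library, in TPM on a log axis, by treatment. Symbols are the 3 RNA samples and horizontal lines the means; all RppH libraries lie above all untreated libraries of the same group, with means of 3.99, 8.26 and 3.89 TPM.

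Whether the groups responded unequally was asked of the log2 ratio between their counts within each library, in which the library total cancels. The Tyr to iMet log2 ratio was -1.16, -0.74 and -1.14 untreated, -1.24, -2.28 and -1.08 after Dcp, and -0.08, 0.27 and -0.23 after RppH. After RppH it was thus higher in all 3 libraries than in any other, by 1.00 against untreated and by 1.52 against Dcp. Both comparisons gave an exact permutation p = 0.1 (two-sided, adjusted 0.3 over 9 comparisons), the smallest p that 3 against 3 libraries allow. The Tyr to Met ratio was 1.10 higher after RppH than after Dcp (exact permutation p = 0.1, adjusted 0.3), again without overlap. It overlapped in the other 2 comparisons, as did the Met to iMet ratio in all 3. With 3 against 3 libraries this exact test cannot pass a threshold of 0.05. Without the most counted gene of each group the Tyr to iMet difference for RppH against untreated turned to -0.19 (exact permutation p = 0.7). The untreated libraries then held only 4 iMet and 2 Tyr counts, too few to settle its direction.

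Gene by gene, RppH against untreated called 27 of the 28 tested genes higher in edgeR's quasi-likelihood test: 8 of 8 iMet, 11 of 12 Met and 8 of 8 Tyr. All 7 genes with 10 or more counts outside RppH were among them. The background was as high, with 91.2% of the 354 tested loci and 88.7% of the other tRNA genes called higher. None of the 354 loci was lower in edgeR or DESeq2, also at an unadjusted p under 0.05. The median log2 change was 5.16 for iMet, 5.20 for Met and 5.77 for Tyr, against 5.62 for the other tRNA genes. Of the 28 genes, 18 had 0 counts in all untreated libraries, and 21 reached the minimum only through the RppH libraries. Every RppH library lay above every untreated library in 20 of the 28. That count is therefore a description only, and no share over all loci was taken for it. The gene not called was tRNA2-MetCAT on scaffold 14a, with 5 untreated and 25 RppH counts (named after its values were seen). Blocking by RNA sample left 15 of the 28 and 203 of the 354 loci called. These calls rest on the library total as the scale. With factors from the listed loci themselves, the median log2 change of all loci went from 5.68 to 4.20 (TMM) or 4.15 (median of ratios), and edgeR then called 2 or 0 of the 28 higher, with 6 or 3 at an unadjusted p under 0.05. Over all loci the split became 66 higher and 8 lower, or 43 higher and 9 lower.

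The elongator Met group held the most abundant precursors. tRNA7-MetCAT on scaffold 159 (positions 330659 to 330760, minus strand) was at 0, 0.0869 and 0.114 TPM untreated, 0.974, 0.441 and 0.379 TPM after Dcp, and 1.78, 2.00 and 3.00 TPM after RppH. The treatments did not overlap, and RppH was 37.7 times the untreated level (log2 change 5.07 ± 1.09 SE, edgeR adjusted p = 3.71e-05). This and the other folds of single genes compare pooled counts over pooled library totals, unlike the ratios of mean TPM given for the groups. tRNA4-MetCAT on scaffold 161a (818041 to 818142, plus strand) was at 0.0726, 0.0869 and 0.114 TPM untreated, 0.039, 0 and 0.138 TPM after Dcp, and 1.71, 1.88 and 1.89 TPM after RppH. Its Dcp and untreated values overlapped and its RppH values were 20.8 times the untreated level (log2 change 4.30 ± 1.06 SE, edgeR adjusted p = 0.000256). tRNA5-MetCAT on scaffold 92b (564742 to 564848, minus strand) was at 0, 0.152 and 0 TPM untreated, 0.0779, 0.098 and 0 TPM after Dcp, and 1.93, 0.801 and 2.19 TPM after RppH. All its untreated counts came from RNA sample 2, and its RppH level was 27.7 times as high (log2 change 4.77 ± 1.12 SE, edgeR adjusted p = 0.000126).

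The remaining named Met copies were rarer. tRNA1-MetCAT on scaffold 89c had 1, 0 and 4 untreated, 1, 0 and 0 Dcp, and 12, 3 and 23 RppH counts. In TPM its RppH library of RNA sample 2 lay below the untreated library of RNA sample 3, so the treatments overlapped (log2 change 2.95 ± 1.21 SE, edgeR adjusted p = 0.018). With TMM or median-of-ratios factors the change turned negative (-0.17 or -0.45), and the call was lost when RNA sample was a block (adjusted p = 0.083). It was also lost without RNA sample 1 (0.105) or 2 (0.081), without RppH library 1 (0.064) or 3 (0.122), and without untreated library 1 (0.058) or 2 (0.080). tRNA4-MetCAT on scaffold 63 had 0 untreated counts, 2, 4 and 4 after Dcp and 10, 7 and 15 after RppH, at least 14.1-fold higher than a floor of 3 counts over the untreated libraries (edgeR adjusted p = 0.000339). tRNA10-MetCAT on scaffold 10 was seen only after RppH, with 7, 5 and 0 counts. That was at least 5.30-fold above the same floor.

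Of the iMet copies, tRNA13 on scaffold 16 (2759801 to 2759898, minus strand) was the most evenly spread over treatments. It was at 0.242, 0.0434 and 0.189 TPM untreated, 0.507, 0.367 and 0.207 TPM after Dcp, and 1.02, 0.561 and 1.86 TPM after RppH. It held 17 of the 21 untreated iMet counts, and its RppH level was 8.11 times the untreated level (log2 change 2.86 ± 0.99 SE, edgeR adjusted p = 0.00669). Without RppH library 3 the call was lost (log2 change 2.31, adjusted p = 0.058), and with TMM or median-of-ratios factors the change turned negative (-0.31 or -0.64). tRNA2-iMetCAT on the same scaffold (992447 to 992537, plus strand) was at 0 in all untreated libraries, at 0.312, 0.833 and 0 TPM after Dcp, and at 0.692, 0.601 and 0.959 TPM after RppH. RppH was at least 29.2-fold above the untreated floor (edgeR adjusted p = 3e-05), and the Dcp values were high in RNA samples 1 and 2 only.

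tRNA18-iMetCAT on scaffold 3 had 4, 0 and 0 untreated, 1, 1 and 3 Dcp, and 4, 4 and 36 RppH counts, so a single library carried most of its signal. Its log2 change of 3.63 ± 1.21 SE (edgeR adjusted p = 0.00515) became 2.05 (adjusted p = 0.225) without RppH library 3 and 1.62 (adjusted p = 0.352) without RNA sample 3. The block also ended the call (adjusted p = 0.083). tRNA9-iMetCAT on scaffold 5 had 0 untreated counts, 0, 2 and 0 after Dcp and 13, 20 and 10 after RppH, at least 19.0-fold above the floor (edgeR adjusted p = 0.000106). tRNA11-iMetCAT on scaffold 1 was seen only after RppH, with 15, 9 and 9 counts, at least 14.6-fold above the floor. tRNA11-iMetCAT on scaffold 16 was likewise seen only after RppH, with 4, 5 and 3 counts, at least 5.30-fold above the floor.

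Among the Tyr copies, tRNA1-TyrGTA on scaffold 98 (359891 to 359997, plus strand) was at 0.121, 0 and 0.0757 TPM untreated, 0, 0.098 and 0.0345 TPM after Dcp, and 0.910, 1.64 and 1.71 TPM after RppH. Dcp and untreated values overlapped, and RppH was 23.3 times the untreated level (log2 change 4.40 ± 1.11 SE, edgeR adjusted p = 0.000339). tRNA1-TyrGTA on scaffold 254 (24477 to 24581, plus strand) was counted 1 time untreated, with 4, 1 and 2 Dcp counts and 30, 31 and 39 RppH counts. In TPM the RppH libraries were within 1.09 to 1.24, and the ratio to untreated was 133 with a counting interval of 23.3 to 5290 (edgeR adjusted p = 2.03e-05). The rarer tRNA3-TyrGTA on scaffold 7 had 0 untreated counts, 0, 1 and 0 after Dcp and 5, 10 and 8 after RppH, at least 10.2-fold above the floor (edgeR adjusted p = 0.0017). tRNA1-TyrGTA on scaffold 130 had 0 untreated counts, 1, 0 and 1 after Dcp and 3, 4 and 14 after RppH, at least 9.28-fold above the floor (edgeR adjusted p = 0.00266). tRNA3-TyrGTA on scaffold 64 was seen only after RppH, with 4, 2 and 4 counts, at least 4.42-fold above the floor.

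**Figure D2:**
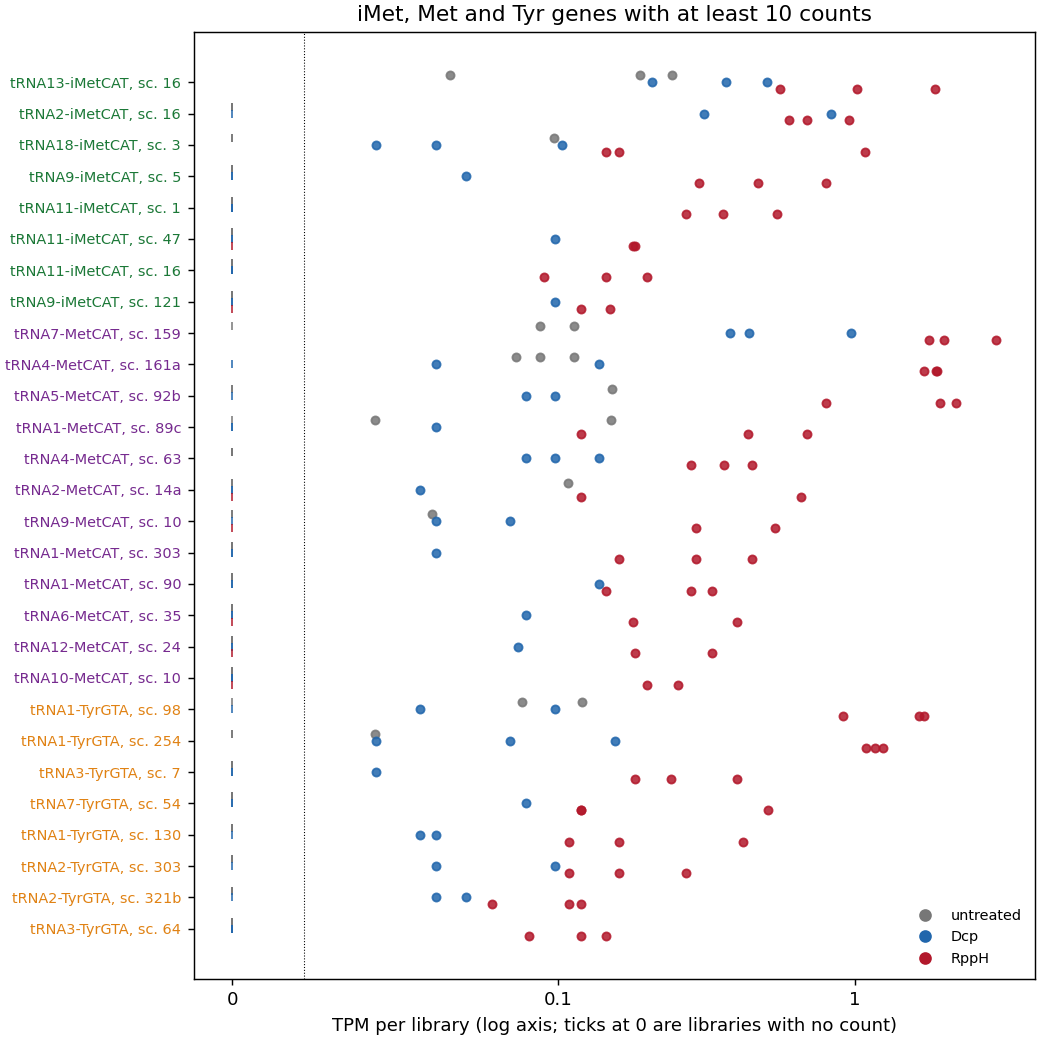
Level of each iMet, Met and Tyr gene with at least 10 counts in the 9 libraries, in TPM on a log axis, with short ticks at the left for libraries with no count. Points of the 3 treatments are offset vertically. Of the 28 genes, 18 had no count in any untreated library, and 21 reached the minimum only through the RppH libraries.

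Dcp against untreated called 3 of the 28 genes higher, 1 iMet, 2 Met and 0 Tyr, against a background of 13.6% of all tested loci and 4.18% of the other tRNA genes (edgeR). At an unadjusted p under 0.05 there were 5, of which 1 was Tyr, beside 95 of the 354 loci and 43 of the 239 other tRNA genes. None was lower in edgeR or DESeq2, also at an unadjusted p under 0.05. DESeq2 called 0 Tyr genes as well. The called genes were tRNA2-iMetCAT on scaffold 16, tRNA7-MetCAT on scaffold 159 and tRNA4-MetCAT on scaffold 63, and all 3 were also higher after RppH. tRNA2-iMetCAT was at least 16.7-fold above the untreated floor (log2 change 6.69 ± 1.64 SE, edgeR adjusted p = 0.00142), but 34 of its 42 Dcp counts came from RNA sample 2. Without that RNA sample its adjusted p was 0.195. tRNA7-MetCAT was 9.19 times the untreated level (log2 change 3.15 ± 1.06 SE, edgeR adjusted p = 0.030), with a rise in all 3 RNA samples. That call was lost with the block (adjusted p = 0.107). It was also lost without RNA sample 1 (0.498) or 2 (0.091), and without Dcp library 1 (0.133), untreated library 1 (0.141) or RppH library 1 (0.058). tRNA4-MetCAT was at least 3.97-fold above the floor (log2 change 4.83 ± 1.73 SE, edgeR adjusted p = 0.045, with the block 0.175). Its call held in 2 of the 12 fits that left out a library or an RNA sample, those without Dcp library 1 and without RppH library 3. In the other fits its adjusted p was 0.059 to 0.278. With the block, with either factor from the listed loci or with no minimum count, only tRNA2-iMetCAT was called.

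Between the enzymes, 14 of the 28 genes were called higher after RppH than after Dcp, 4 of 8 iMet, 6 of 12 Met and 4 of 8 Tyr (edgeR). Of these 14, 4 were counted only after RppH, and 3 had 10 or more counts outside it. The background was 61.0% of all tested loci and 68.2% of the other tRNA genes, and none was lower in edgeR or DESeq2, also at an unadjusted p under 0.05. The median log2 difference was 2.35 for iMet, 3.56 for Met and 3.54 for Tyr, against 3.67 for the other tRNA genes. With the block, 6 of the 28 and 64 of the 354 loci were called. With TMM or median-of-ratios factors the median over all loci went from 3.34 to 1.25 or 1.11. Then 0 of the 28 were called, with 4 at an unadjusted p under 0.05 in both, and the loci split into 10 higher and 12 lower, or 5 higher and 12 lower. In all, 13 genes were called higher after RppH than in both other treatments with no call for Dcp. A further 11 were called only for RppH against untreated, and 3 were called for both enzymes. None of the last 3 passed the threshold for RppH against Dcp. These patterns were not counted over the other loci, so they do not set the 28 genes apart. Of the other tRNA genes, 88.7% were called for RppH against untreated and 4.18% for Dcp against untreated.

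The 6 genes called with the block were also called in every fit that left out a library or an RNA sample. Only 3 of the 6 had 10 or more counts outside RppH, those on scaffolds 161a, 92b and 98. The others reached the minimum only through the RppH libraries, so their calls and p-values are a description. tRNA11-iMetCAT on scaffold 1, one of these others, had 0 Dcp and 33 RppH counts, at least 12.2-fold more. tRNA4-MetCAT on scaffold 161a differed 35.0-fold (edgeR adjusted p = 0.000502), tRNA5-MetCAT on scaffold 92b 27.1-fold (0.000843) and tRNA1-TyrGTA on scaffold 98 27.4-fold (0.000843). tRNA1-TyrGTA on scaffold 254 differed 15.9-fold (edgeR adjusted p = 0.00474), and tRNA9-iMetCAT on scaffold 5, with 2 Dcp counts, by a ratio of 23.9 with a counting interval of 6.23 to 204 (0.00549). These were not the highest ratios: tRNA1-MetCAT on scaffold 89c, with 1 Dcp count, stood at 42.3 with a counting interval of 7.15 to 1714. At the other end, tRNA7-MetCAT on scaffold 159 was 4.10 times as high after RppH as after Dcp (log2 difference 1.92 ± 0.90 SE, edgeR adjusted p = 0.055). The ratio was 3.40 for tRNA13-iMetCAT (adjusted p = 0.107), 3.56 for tRNA4-MetCAT on scaffold 63 (0.151) and 1.75 for tRNA2-iMetCAT (0.378). All 4 differences turned negative with TMM or median-of-ratios factors.

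Several other calls of RppH against Dcp depended on few counts, and the 3 that follow were lost with the block. tRNA1-MetCAT on scaffold 89c (1 Dcp and 38 RppH counts, edgeR adjusted p = 0.00634, block 0.069) was lost without RNA sample 3 (0.128). tRNA3-TyrGTA on scaffold 7 (edgeR adjusted p = 0.019, block 0.119) was lost without RNA sample 1 (0.052) or 3 (0.102) or Dcp library 3 (0.064). tRNA18-iMetCAT on scaffold 3 (0.025, block 0.188) was lost without RNA sample 1 (0.053), 2 (0.088) or 3 (0.319), without Dcp library 2 (0.084) or 3 (0.059) and without RppH library 3 (0.446).

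The elongator Met and Tyr precursors were longer than the initiator precursors. Length was taken as the span of the listed interval, weighted by counts, so it includes leader, trailer and any intron. After RppH the mean iMet length was 86.4, 87.0 and 84.9 nt in RNA samples 1, 2 and 3, the mean Met length 97.0, 96.4 and 97.1 nt, and the mean Tyr length 99.8, 98.0 and 99.3 nt. The ranges of the 3 groups did not overlap. Met exceeded iMet by 10.7 ± 1.45 nt (SD, n = 3 libraries), Tyr exceeded iMet by 12.9 ± 1.80 nt and Tyr exceeded Met by 2.21 ± 0.61 nt, each in 3 of 3 libraries. An exact paired permutation test gave p = 0.25 for each, the smallest that 3 pairs allow. Among the 20 isotypes with at least 100 counts, Tyr was the longest and Met the next. They were followed by Ser (96.5 ± 0.159 nt), Leu (94.4 ± 0.158 nt) and His (89.0 ± 0.967 nt), while iMet (86.1 ± 1.12 nt) ranked 13. The Met and Ser means differed by less than the SD of the Met libraries.

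**Figure D3:**
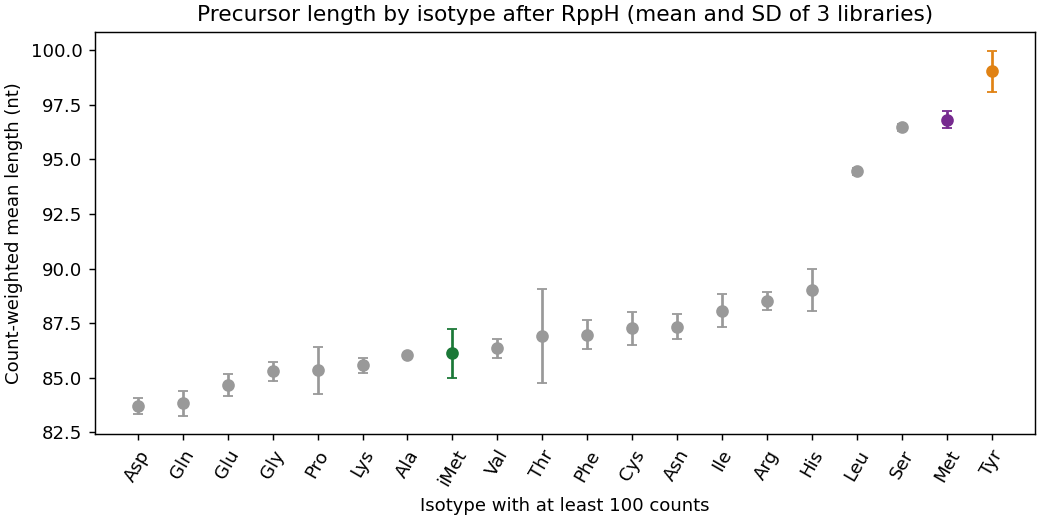
Count-weighted mean length of the listed precursors after RppH for each isotype with at least 100 counts, as mean and SD of 3 libraries in nt; the vertical axis does not start at 0. Tyr (99.0 nt) and Met (96.8 nt) stand at the upper end with Ser and Leu, and iMet (86.1 nt) among the other isotypes.

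The lengths were spread differently within the groups. The middle 90% of RppH counts covered 76 to 91.5 nt for iMet, 93 to 100 nt for Met and 91 to 106 nt for Tyr, around medians of 87, 97 and 98 nt. Among genes with at least 10 counts, the most counted form was 76 to 91 nt long for iMet, 88 to 100 nt for Met and 87 to 105 nt for Tyr. With the rarer genes included, the most counted form reached 96, 104 and 108 nt. For tRNA7-MetCAT on scaffold 159 it was a 95-nt form at 330663 to 330757, which held 45.4% of the counts. For tRNA4-MetCAT on scaffold 161a it was a 96-nt form (60.5%), and for tRNA5-MetCAT on scaffold 92b a 98-nt form (56.0%). Both leading Tyr genes had a 98-nt form, at 359893 to 359990 on scaffold 98 (56.3%) and at 24479 to 24576 on scaffold 254 (54 of 108 counts), whereas tRNA3-TyrGTA on scaffold 7 had one of 105 nt. The leading iMet forms were an 83-nt form of tRNA13-iMetCAT at 2759809 to 2759891 (22.6%) and an 87-nt form of tRNA2-iMetCAT at 992447 to 992533 (54.6%).

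**Figure D4:**
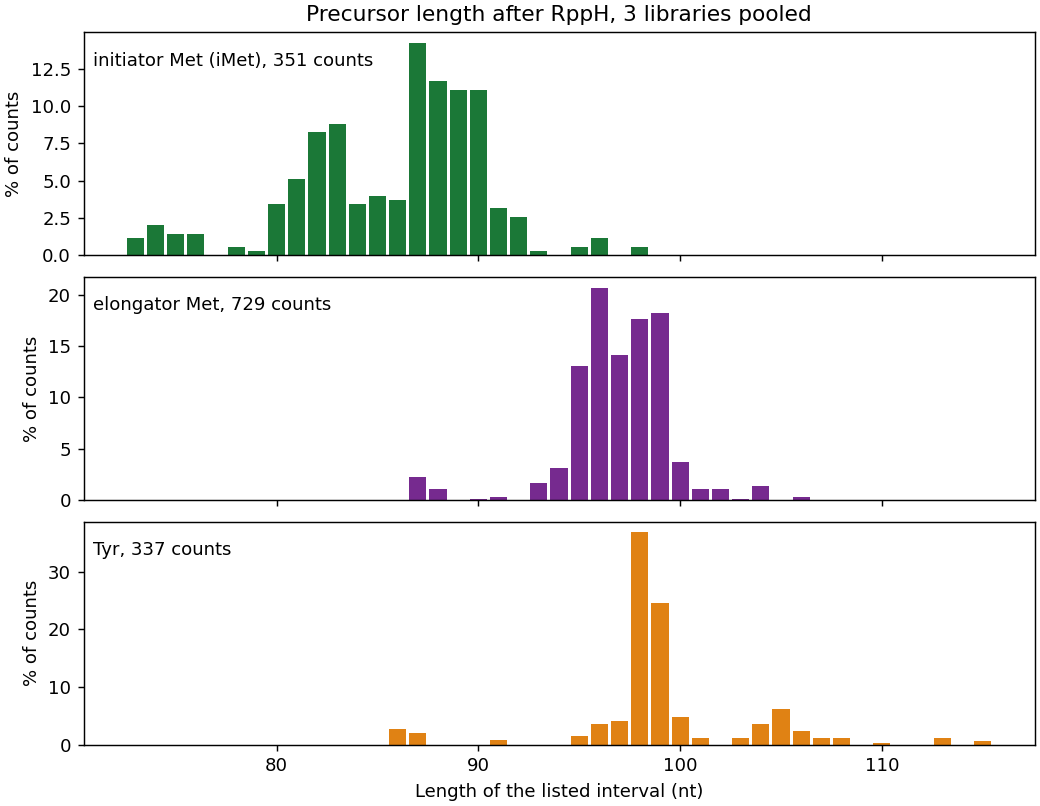
Distribution of precursor length after RppH, with the counts of 3 libraries pooled, as percent of each group's counts against length in nt. The iMet lengths spread over 73 to 98 nt around a median of 87 nt, the Met lengths gather around 97 nt, and the Tyr lengths around 98 nt with a smaller group above 103 nt.

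Mean lengths were close between treatments. The Met mean was 96.8, 95.8 and 95.7 nt untreated and 94.6, 95.7 and 93.5 nt after Dcp, so the RppH values lay 2.21 nt above the Dcp values without overlap (exact permutation p = 0.1, adjusted 0.45 over 9 comparisons). For Tyr the RppH mean was 1.24 nt below the Dcp mean (exact permutation p = 0.1, adjusted 0.45), the latter from 25 counts. For iMet the treatments overlapped, with means of 83.9 ± 2.70 nt untreated, 83.4 ± 3.82 nt after Dcp and 86.1 ± 1.12 nt after RppH (n = 3 libraries each).

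The 5′ ends of the Met precursors were nearly fixed, while those of iMet varied more and those of Tyr were close to the other tRNA genes. For each gene the most used 5′ end was taken over all 9 libraries, which favours a high share where a gene has few counts. After RppH the share of counts starting exactly there was 90.7%, 84.0% and 75.1% for iMet in RNA samples 1, 2 and 3. It was 97.3%, 96.7% and 96.7% for Met and 89.1%, 95.9% and 93.2% for Tyr, and 92.4% for the pooled counts of all other tRNA genes. Met was thus above iMet and Tyr in every library, whereas Tyr was below iMet in RNA sample 1. Pooled over the libraries the shares were 81.5% of 351 iMet counts (Wilson 95% interval 77.1 to 85.2%), 96.8% of 729 Met counts (95.3 to 97.9%) and 92.9% of 337 Tyr counts (89.6 to 95.2%). Of the genes with at least 10 counts, 9 of 12 Met, 3 of 8 iMet and 2 of 8 Tyr genes had a single 5′ end. Without the most counted gene of each group the pooled shares after RppH were 89.1% of 247 iMet counts, 96.4% of 530 Met counts and 90.7% of 214 Tyr counts.

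Before any enzyme all 38 Met counts and all 9 Tyr counts lay at the most used 5′ end of their gene. Their Wilson intervals reach down to 90.8% and 70.1%. Of the 21 untreated iMet counts 10 did, all 10 of them in RNA sample 1. After Dcp the shares were 78.0% of 91 iMet counts, 93.5% of 107 Met counts and 96.0% of 25 Tyr counts. The iMet share was higher after RppH than untreated in every library (exact permutation p = 0.1, adjusted 0.257 over 18 comparisons of 5′ and 3′ ends), but the untreated libraries held 14, 2 and 5 counts. For Met the share after Dcp was 94.7%, 91.9% and 93.8% in RNA samples 1, 2 and 3, below all RppH libraries, which in turn lay below the untreated ones (exact permutation p = 0.1, adjusted 0.257, in all 3 comparisons). The order of the enzymes turned within 1 nt of that end, with 99.1% after Dcp and 96.8% after RppH, and also for genes with at least 10 counts, with 98.9% and 97.5%.

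The gene behind most of the iMet spread was tRNA13-iMetCAT on scaffold 16, with 23 intervals, 6 different 5′ ends and 11 different 3′ ends. Its most used 5′ end was position 2759891, with 86 of 155 counts. Starts 5 to 7 nt upstream of it held 9 of 17 untreated counts, 5 of 34 Dcp counts and 28 of 104 RppH counts. The start 1 nt downstream held 2 of 17 untreated counts, 15 of 34 Dcp counts and 6 of 104 RppH counts. The upstream starts were seen in RNA samples 1 and 3 untreated and in all 3 RNA samples after RppH. Among the Met genes, tRNA4-MetCAT on scaffold 63 had a second start 2 nt upstream, with 11 of its 42 counts, all after RppH. tRNA1-TyrGTA on scaffold 254 likewise had 9 of 108 counts 2 nt upstream, all after RppH, and tRNA1-TyrGTA on scaffold 98 had 5 of 135 counts there.

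The 3′ ends varied more than the 5′ ends in all 3 groups. After RppH the share at the most used 3′ end was 47.3% for iMet, 51.0% for Met and 57.9% for Tyr, beside 44.7% for the other tRNA genes, and 80.1%, 83.0% and 85.5% lay within 1 nt of it. No gene with at least 10 counts had a single 3′ end. Per library the share after RppH was 39.2%, 43.2% and 53.8% for iMet, 51.6%, 44.0% and 53.6% for Met, and 56.5%, 46.9% and 66.0% for Tyr, so the groups overlapped. Where RppH counts missed the most used 3′ end, Met and Tyr lay more often downstream of it (32.5% and 34.1% of counts, against 16.5% and 8.01% upstream). The iMet counts lay more often upstream (36.5% against 16.2%). The share did not separate the treatments for iMet or Tyr. For Met it was lower after RppH and after Dcp than untreated (exact permutation p = 0.1 and adjusted 0.257 in both), with 38 untreated counts.

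**Figure D5:**
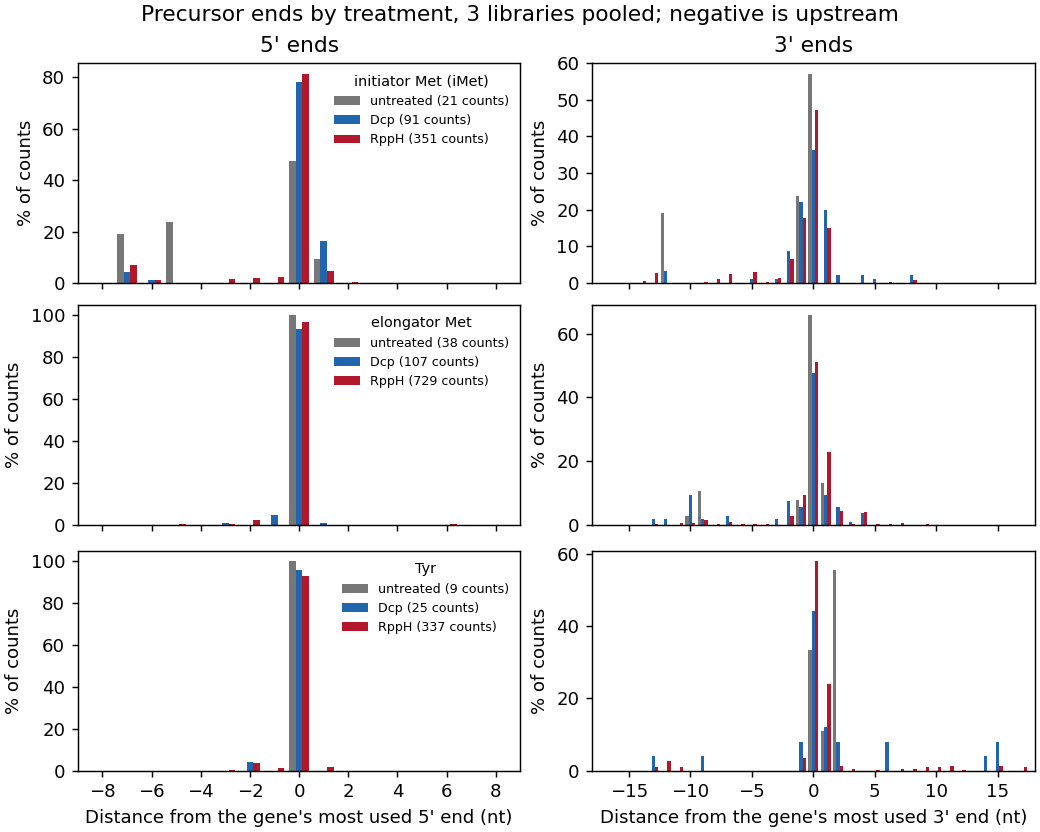
Position of 5′ ends (left) and 3′ ends (right) relative to the most used end of each gene, in nt with negative values upstream, as percent of the group's counts pooled over 3 libraries per treatment. After RppH 96.8% of Met and 92.9% of Tyr counts start at the most used 5′ end, while 51.0% and 57.9% stop at the most used 3′ end.

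Some precursors had the usual 5′ end and a 3′ end well inside the usual one. These short forms were defined after the data were seen, as a 3′ end at least 8 nt upstream of the most used end with a 5′ end within 2 nt. Met short forms were 85 to 91 nt long and came from 9 genes. They held 0 of 4, 4 of 23 and 1 of 11 untreated counts, 2 of 38, 6 of 37 and 8 of 32 Dcp counts, and 7 of 219, 8 of 150 and 6 of 360 RppH counts. Pooled, this was 13.2% untreated, 16 of 107 counts after Dcp (Wilson 95% interval 9.42 to 22.9%) and 2.88% after RppH (1.89 to 4.36%). These intervals leave out the spread between libraries. By library the enzymes overlapped, with 5.26% after Dcp in RNA sample 1 and 5.33% after RppH in RNA sample 2. The share after Dcp rested largely on tRNA4-MetCAT on scaffold 63, whose 88-nt form at 1163169 to 1163256 held 9 of the 16 Dcp counts and was that gene's most counted form. Without that gene, Met short forms were 7 of 97 counts after Dcp (7.22%) and 17 of 697 after RppH (2.44%). On scaffold 161a the 87-nt form of tRNA4-MetCAT held 14 of 172 counts, all from RNA samples 2 and 3.

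The short forms of the other groups followed single libraries. Tyr short forms were 0 of 9 counts untreated, which allows a share of up to 33.3% (3 counts of the total), 2 of 25 after Dcp and 15 of 337 after RppH. Of those 15, 11 were from tRNA1-TyrGTA on scaffold 98 in RNA sample 2. iMet short forms, of 73 to 81 nt, were 4 of 21 counts untreated, 3 of 91 after Dcp and 17 of 351 after RppH, of which 14 were in RNA sample 3. The untreated and Dcp ones were all from tRNA18-iMetCAT on scaffold 3, which gave 4 counts in untreated RNA sample 1 and 3 counts in Dcp RNA sample 3.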

How the data were processed

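Per the file headers, the deposited table gives raw transcript counts and the authors' TPM for each interval in each library. Tools in the submitters' processing notes are bedtools, Bowtie2, cutadapt and SAMtools, with no version. How multiple matches were handled was not stated. Deposited TPM equalled the count over 1 constant per library, from which library totals were recovered; what they count is not stated. The genes and lists were chosen with earlier results of these data known.

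Counts were summed per gene. edgeR 4.0.16 (R 4.3.3; quasi-likelihood, two-sided, Benjamini-Hochberg over 354 loci with at least 10 counts, threshold 0.05) used library totals as offsets, with all 9 libraries in the same fit. The SE is the log2 change divided by the square root of F. Single values were compared by exact permutation over libraries (scipy 1.17.1). Scripts were tested on simulated data. Folds of single genes are pooled counts over pooled library totals, and those of isotypes and group totals are ratios of mean TPM. Where a group had 0 counts, folds use 3 counts for that group, and ratios to 1 to 3 counts an exact 95% counting interval.

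Per the labels, libraries with the same number share an RNA sample, so the numbers pair them. Deviations from group means correlated at -0.27 to 0.20 within RNA samples and -0.35 to 0.29 between them, over 354 loci. Named genes were the 4 most counted per group, up to 5 with the largest change among those called per comparison, and those called after Dcp. Alternatives were other scalings, DESeq2 1.42.0, other count minimums, the RNA sample as a block and leaving out libraries or RNA samples. No sequence is shown, and introns and mature ends were not located, because no genome of this assembly was used here.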

Additional observations from a re-analysis of the deposited data

How the results depend on the processing

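In edgeR fits with TMM factors, median-of-ratios factors or the replicate block, genes called higher fell from 27 to 2, 0 and 15 of 28 for RppH against untreated, from 3 to 1, 1 and 1 for Dcp against untreated, and from 14 to 0, 0 and 6 for RppH against Dcp. The loci called higher fell from 323 to 66, 43 and 203, from 48 to 33, 30 and 30, and from 216 to 10, 5 and 64. Lower calls rose from 0 to 8 and 9 for RppH against untreated and to 12 and 12 for RppH against Dcp under the 2 factor scalings. A minimum of 30 counts left 14 genes and 185 loci to test. Of these, 14 genes and 174 loci were higher after RppH than untreated, and RppH against Dcp called 129 of the 185 loci. No minimum left 1 gene for Dcp against untreated, with 39 of 650 loci. DESeq2 called 3 of the 28 genes and 52 of the 354 loci for Dcp against untreated. For RppH against Dcp it called 11 of the 28 genes and 145 of the 354 loci. For RppH against untreated it called 19 of the 28 genes, where edgeR called 27 and 91.2% of all loci. With a background that high in edgeR, the 19 are not read as particular to these genes. Leaving out libraries or RNA samples left 19 to 28 genes to test and called 16 to 28, 0 to 3 and 6 to 17 of them. These fits tested 250 to 352 loci and called 206 to 319, 17 to 57 and 52 to 223 of them. The lowest gene counts came without RppH library 3 (16 of 20), RNA sample 2 (0 of 23) and RNA sample 3 (6 of 19), in that order.

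Under TMM and median-of-ratios factors these log2 changes turned negative: RppH against untreated for tRNA13-iMetCAT on scaffold 16 (-0.31 and -0.64) and tRNA1-MetCAT on scaffold 89c (-0.17 and -0.45), and RppH against Dcp for tRNA7-MetCAT on scaffold 159 (-0.25 and -0.41), tRNA13-iMetCAT (-0.60 and -0.78) and tRNA2-iMetCAT (-1.25 and -1.32) on scaffold 16, and tRNA4-MetCAT on scaffold 63 (-0.50 and -0.69). No other named gene changed direction under the alternatives other than leaving out libraries.

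Group totals as a share of pre-tRNA counts gave log2 ratios for RppH of 0.90 (iMet), 0.77 (Met) and 2.14 (Tyr). Without the most counted gene, RppH gave 6.46 (iMet) and 7.34 (Tyr), and Dcp 3.82 (Tyr). Between groups, leaving out those genes, which left 4 iMet and 2 Tyr untreated counts, gave, against untreated, -0.19 for Tyr to iMet and -2.09 for Met to iMet after RppH, and 1.68 for Tyr to Met after Dcp. Leaving out RNA samples gave Met to iMet differences of -1.18 to 1.42 (RppH against untreated), -1.61 to 1.59 (Dcp against untreated) and -0.16 to 0.99 (RppH against Dcp). For Tyr to Met these were -0.43 to 2.14 and -1.60 to 0.87 (RppH and Dcp against untreated). Mean length without the most counted gene was 97.3 nt (Met) and 100.1 nt (Tyr). The 5′ share of Met after Dcp was 99.1% within 1 nt and 98.9% for genes with at least 10 counts, and after RppH 96.8% and 97.5%, so the order of Dcp and RppH reversed; for untreated iMet it was 0 to 62.5% when a library was left out. At 50 kb, 2 Met and 2 Tyr genes had a neighbour of their group. The cause of these shifts was not tested. With 68 counts in all untreated libraries, folds over untreated are imprecise.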
